A study of Mus musculus with 6 samples.

Results

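Transcripts that carry only a RIKEN clone identifier as their name (names ending in Rik) were examined in liver RNA of mice without hepatocyte Abca1 and of their controls. They were chosen by 3 conditions on the deposited gene table: the whole name of a row ends in Rik, the row names a single gene, and its mean over the 6 libraries is at least 10 normalized reads. Of 29981 rows, 1854 were Rik rows of a single name, and 94 of these reached the mean of 10. The choice used the mean over both groups, so levels are given as a description. All 6 libraries were at 0 for 1226 of the 1854 (66.1%), beside 53.9% of all rows, and 534 lay above 0 with a mean under 10. The 94 made up 3.42% of the 2750 rows of any name with a mean of at least 10, over which all tests were run. A further 71 rows name several genes including a Rik gene, and the 3 of them with a mean of at least 10 were left out because their reads cannot be assigned to the Rik gene.

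The mice were C57BL/6. In the first group (HSKO, n = 3) the lipid transporter gene Abca1 was deleted in hepatocytes by a Cre recombinase under the Albumin promoter, and the second group (WT, n = 3), labelled wildtype, consisted of floxed controls. All livers were collected after food had been withheld from 9 am to 1 pm, and poly(A) RNA was sequenced from both ends with a strand-marking kit. No label says that the samples of a group came from separate animals, and p-values therefore describe only how these samples spread, which may be technical. No age or sex is stated, and liver cells other than hepatocytes keep Abca1 in an Albumin-Cre model.

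Names of this kind were given to full-length mouse cDNA clones before anything was known of the gene behind them. Many of them stand for long noncoding RNAs, often transcribed from the strand opposite a known gene, others for small or poorly studied proteins, and some have since received a proper gene symbol. Because a long noncoding RNA and the gene opposite it can share exonic sequence, the value of such a row depends on whether reads were assigned by strand. How strand was handled in counting is not stated in the sources used here.

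The libraries were shallow, with 838637 to 933319 reads in WT and 631020 to 702013 in HSKO, and the single row BC071253 took 43.1% to 57.8% of them. Under the deposited scaling, 1 read was worth 0.564 to 0.763 normalized units in WT and 1.33 to 1.46 in HSKO. These values did not follow depth alone. WT replicate 1 had more reads than WT replicate 3 (892042 against 838637) and yet a larger value per read (0.763 against 0.564). Abca1 itself gave 20, 36 and 34 reads in WT and 2, 1 and 2 reads in HSKO (log2 fold change -2.62, SE 0.50, limma adjusted p = 0.000862), so the libraries matched their labels. Albumin transcripts stood at 6426 ± 1746 (SD, n = 3) in WT and at 3932 ± 1205 in HSKO. The groups overlapped and did not pass (limma adjusted p = 0.0525). The summed level of 12 hepatocyte markers ran from 12500 to 15100 in WT and from 8130 to 12000 in HSKO, with 4 of them lower in every HSKO library. Summed endothelial markers (23.7 to 25.2 against 4.36 to 23.4) and stellate markers (35.5 to 41.2 against 11.7 to 33.2) were also lower in HSKO. Kupffer cell sums overlapped (31.3 to 67.1 against 21.9 to 51.9). In whole liver, fewer cells of a type and less RNA per cell cannot be told apart.

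Under the deposited scaling, Rik transcripts were mostly higher in the livers without hepatocyte Abca1. The balance of calls depended on that scaling, with 6 higher and 14 lower when libraries were scaled to total reads. It also differed with overlap on the other strand, as the 20 rows without shared exonic bases had a median log2 fold change of -0.11. Of the 94, limma called 48 higher and 3 lower in HSKO at an adjusted p below 0.05, and 43 passed in neither direction. That is 51.1% higher and 3.19% lower, where 28.5% and 11.6% of all tested rows were called. The median log2 fold change, given throughout as HSKO minus WT and computed on log2(value + 1), was 0.84 for the Rik rows and 0.07 for all tested rows, and 75 of the 94 lay above 0, against 1439 of 2750. All 3 HSKO libraries lay above all 3 WT libraries for 52 Rik rows, with 31.4% of all tested rows doing so, and below them for 7, with 20.1% of all tested rows. Summed over the 94 rows, the normalized level was 9122, 7846 and 5897 in WT replicates 1 to 3 and 13940, 15190 and 14760 in HSKO, so the groups did not overlap. As shares of all reads, Rik rows took 1.29% ± 0.0458 (SD, n = 3) in WT and 1.57% ± 0.127 in HSKO.

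**Figure D1:**
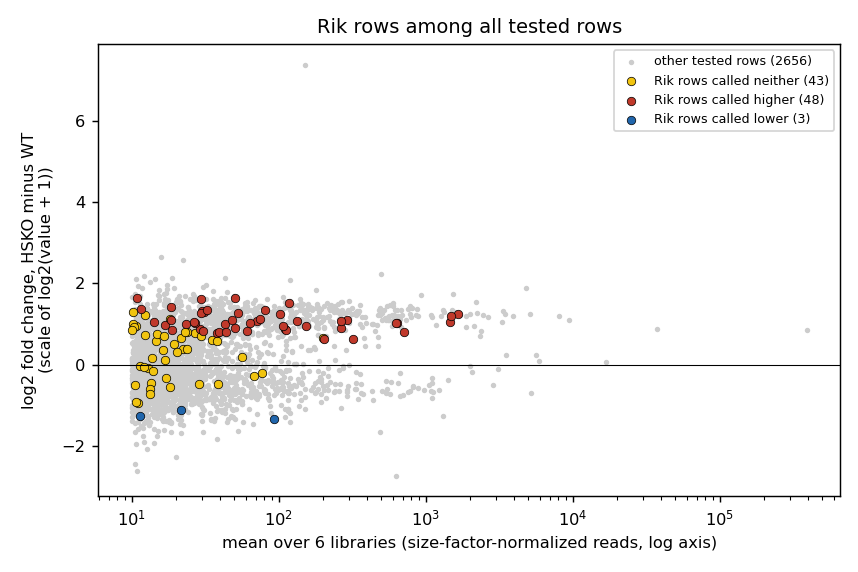
Log2 fold change (vertical axis, HSKO minus WT) against the mean over 6 libraries (normalized reads, log axis) for 94 Rik rows in colour and 2656 other tested rows in grey, 1 point per row. The 48 Rik rows called higher (red) lie in the upper band and reach 1.65, the 43 called neither (yellow) crowd at low means, and 3 called lower (blue) lie at -1.34 to -1.12.

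The 8 largest rises and the falls given next are those among called rows whose groups did not overlap. The largest was that of 1700113A16Rik, a long noncoding RNA at chr3:88171556-88177785 on the minus strand of mm10, whose exons share 531 bases with Mef2d, a muscle and neuronal transcription factor gene, on the other strand. It was measured at 26.7, 19.7 and 25.9 in WT and at 68.7, 75.6 and 87.8 in HSKO. Every HSKO library thus lay above every WT library, at 3.21 times the WT mean (log2 fold change 1.65, SE 0.26, limma adjusted p = 0.000549). The Mef2d row was far lower, at 5.09 ± 1.83 (SD, n = 3) in WT and 1.42 ± 0.074 with the deletion.

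4930455C13Rik, a long noncoding RNA at chr10:21319088-21342057 on the minus strand, shares 266 exonic bases with the translation factor gene Hbs1l. The WT libraries gave 42.7, 50 and 42.9 and the HSKO libraries 126, 119 and 105. They were close together within each group and far apart between groups (log2 fold change 1.35, SE 0.24, adjusted p = 0.00071). A330093E20Rik, a long noncoding RNA opposite the potassium channel gene Kcnn2, went from 68.7, 56.6 and 53.6 to 139, 153 and 237 (log2 fold change 1.51, SE 0.26, adjusted p = 0.000652). HSKO replicate 3 stood above the other HSKO libraries.

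Among the protein-coding rows, 9030025P20Rik rose from 15.3, 19.7 and 7.9 to 32.2, 39.3 and 62.5 (log2 fold change 1.61, SE 0.33, adjusted p = 0.00134). Over 1667 bases its transcript is 99.3% identical to Ermard, and reads of the pair may be split between the rows, which were at 14.3 ± 5.98 and, for Ermard, at 4.51 to 6.58 in WT. 1600012H06Rik, the mouse counterpart of the human reading frame C6orf120, rose from 21.4, 18.4 and 13.5 to 35.1, 50.9 and 55.9 (log2 fold change 1.36, SE 0.28, adjusted p = 0.00138). Both sets of values were free of overlap.

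The other 3 of these 8 were noncoding. D630045J12Rik (log2 fold change 1.42) and 2310005A03Rik (1.36) were also called higher, with overlapping groups, and each reached the mean of 10 only through HSKO. 4930506C21Rik was near the depth limit in WT, at 6.11, 7.9 and 1.69, and stood at 16.1, 14.5 and 18.6 in HSKO (log2 fold change 1.65, SE 0.48, adjusted p = 0.0111). It reached the mean of 10 only through HSKO and so had to differ, and without WT replicate 3 its call was lost (adjusted p = 0.0554). C330022C24Rik went from 14.5, 23.7 and 11.8 to 24.8, 48 and 58.5, with the lowest HSKO value just above the highest WT value (log2 fold change 1.31, SE 0.33, adjusted p = 0.00448). 4930526I15Rik rose from 20.6, 17.8 and 14.1 to 51.2, 43.6 and 38.6 (log2 fold change 1.30, SE 0.27, adjusted p = 0.00136).

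Just 3 Rik rows were called lower, all without overlap. The best measured was 2810007J24Rik, now named Sult2a8, a cytosolic sulfotransferase gene of the liver at chr7:14410686-14446769 on the minus strand. The WT libraries gave 111, 130 and 158 and the HSKO libraries 64.3, 61.1 and 34.6, 2.5 times lower on average with no overlap (log2 fold change -1.34, SE 0.27, adjusted p = 0.00116). 4931406C07Rik, the mouse counterpart of the ester hydrolase gene C11orf54, was at 19.1, 37.5 and 33.3 in WT and at 19, 11.6 and 9.31 in HSKO, so the groups only just separated (log2 fold change -1.12, SE 0.33, adjusted p = 0.0127). Leaving out WT replicate 2 ended its call (adjusted p = 0.0801), as did leaving out WT replicate 3 (adjusted p = 0.0641).

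The long noncoding RNA 1810008I18Rik, at chr7:65803111-65806449 on the plus strand, gave 23, 32 and 20 reads in WT and 4, 5 and 4 in HSKO. Its normalized values were 17.6, 21.1 and 11.3 against 5.85, 7.27 and 5.32 (log2 fold change -1.27, SE 0.40, adjusted p = 0.0173). The call was lost without WT replicate 1 (adjusted p = 0.0565) or WT replicate 2 (adjusted p = 0.129). A further 4 Rik rows lay lower in all HSKO libraries than in any WT library without passing the test. They were 1100001G20Rik, 2900097C17Rik, 9530068E07Rik and A730098P11Rik, with log2 fold changes from -0.95 to -0.29.

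**Figure D2:**
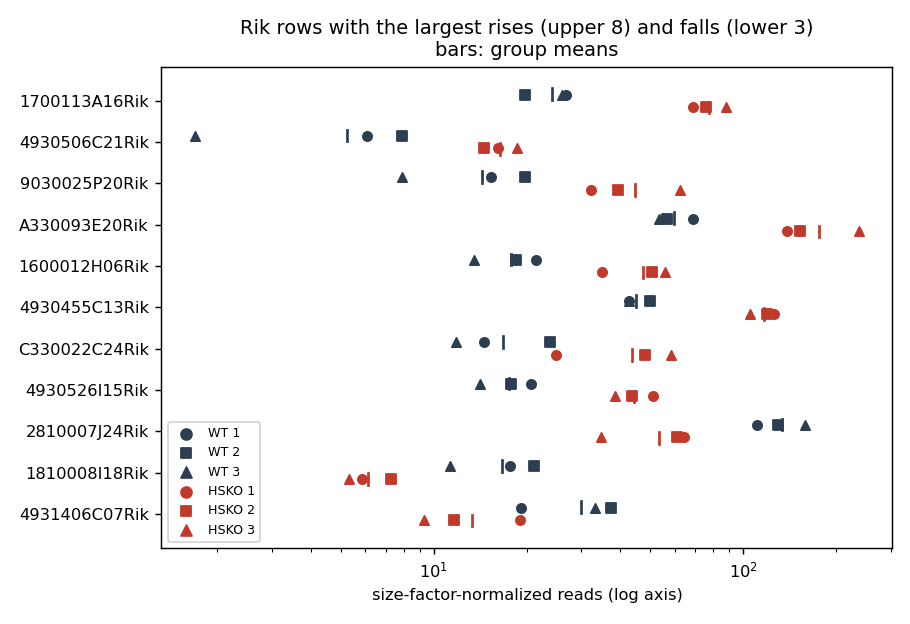
Normalized reads (log axis) of the 8 Rik rows with the largest rises among called rows without overlap and the 3 called lower, 1 marker per library (dark WT, red HSKO, shape for the replicate) with a bar at each group mean. HSKO lies to the right of WT in the upper 8 rows and to the left in the lower 3, and the narrowest gaps are those of C330022C24Rik and 4931406C07Rik (19.1 against 19).

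The promoters of all 3 rows called lower, of the largest riser and of the riser with the fewest CpG dinucleotides are printed to show that base composition varied widely in both directions. The sequences are those of RefSeq on GRCm38.p6, from 250 bases before to 50 bases after the annotated start, 5' to 3' along the gene. Capitals mark matches on either strand to the searched motifs, which were TATAAA, the core of a promoter element bound by the general transcription machinery, and GGGCGG, the core of a GC box. A match on the other strand appears as its reverse complement. The windows are chr3:88177736-88178035 (minus) for 1700113A16Rik, chr19:36689430-36689729 (minus) for 1500017E21Rik, an antisense transcript described further on, chr7:14446538-14446837 (minus) for 2810007J24Rik, chr7:65802787-65803086 (plus) for 1810008I18Rik and chr9:15306399-15306698 (minus) for 4931406C07Rik.
1700113A16Rik: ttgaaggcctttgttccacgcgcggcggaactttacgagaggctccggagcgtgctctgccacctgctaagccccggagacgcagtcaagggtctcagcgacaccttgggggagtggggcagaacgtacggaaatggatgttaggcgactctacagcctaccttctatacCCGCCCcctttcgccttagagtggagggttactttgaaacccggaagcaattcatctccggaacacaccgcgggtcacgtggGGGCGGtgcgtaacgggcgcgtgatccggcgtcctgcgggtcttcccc
1500017E21Rik: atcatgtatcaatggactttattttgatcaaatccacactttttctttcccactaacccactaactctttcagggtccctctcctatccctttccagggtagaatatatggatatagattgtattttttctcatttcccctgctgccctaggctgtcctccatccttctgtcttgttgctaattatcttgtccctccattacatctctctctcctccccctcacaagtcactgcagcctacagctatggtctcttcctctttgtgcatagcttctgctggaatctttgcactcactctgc
2810007J24Rik: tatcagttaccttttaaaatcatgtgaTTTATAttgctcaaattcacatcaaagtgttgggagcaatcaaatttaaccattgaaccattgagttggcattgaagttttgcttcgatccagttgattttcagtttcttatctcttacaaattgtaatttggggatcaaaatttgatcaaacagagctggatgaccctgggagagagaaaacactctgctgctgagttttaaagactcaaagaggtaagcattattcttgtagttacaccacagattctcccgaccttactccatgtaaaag
1810008I18Rik: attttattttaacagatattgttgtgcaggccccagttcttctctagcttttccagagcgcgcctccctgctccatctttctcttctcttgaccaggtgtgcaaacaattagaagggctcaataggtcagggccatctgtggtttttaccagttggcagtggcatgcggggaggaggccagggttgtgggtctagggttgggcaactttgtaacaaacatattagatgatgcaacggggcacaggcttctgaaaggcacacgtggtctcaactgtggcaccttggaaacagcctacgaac
4931406C07Rik: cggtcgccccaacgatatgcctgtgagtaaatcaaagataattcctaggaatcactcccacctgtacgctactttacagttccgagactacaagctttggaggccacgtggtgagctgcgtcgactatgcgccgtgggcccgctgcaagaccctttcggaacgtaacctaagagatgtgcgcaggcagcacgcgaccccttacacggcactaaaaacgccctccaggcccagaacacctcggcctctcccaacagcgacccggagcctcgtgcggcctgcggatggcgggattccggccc

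Among the rows called lower, 2810007J24Rik had 2 CpGs and a GC content of 36%, 1810008I18Rik had 6 CpGs and 50%, and 4931406C07Rik had 26 CpGs and 59.7%. Of the printed risers, 1700113A16Rik had 28 CpGs and 1500017E21Rik had 0, and over all rows called higher the number ran from 0 to 50. A promoter was in the table for 69 of the 94 Rik rows. Their median was 11 CpGs, beside 7 in all 32851 promoters, with 16 in the 37 that were called higher and 11 in the 29 called neither. GGGCGG was found in 44.9% of Rik promoters and 35.7% of all, CCAAT (either strand) in 31.9% and 37.4%, and TATAAA in 4.35% and 13.6%. None of the 37 promoters of rows called higher held TATAAA. The sets are unlike, since Rik rows were chosen for a mean of at least 10 and the 32851 promoters were not chosen by level. A match is a stretch of letters and not evidence of a bound factor, and no test was made of these shares.

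Within WT, normalized reads per row ran from 5.23 to 1004 with a median of 19.4, and 3 rows held 37.6% of the WT reads in Rik rows. Per kilobase of annotated exon, E030024N20Rik was highest at 1850 ± 556, followed by 1810014B01Rik at 366 ± 99.4 and 1110051M20Rik at 193 ± 57.7 (SD, n = 3). The WT libraries of these 3 neighbours in the order did not overlap. Next came 9130221H12Rik at 117 ± 16, 1700018L02Rik at 102 ± 24.4 and 3110062M04Rik at 101 ± 30.1, whose ranges overlapped, and the lowest was D630045J12Rik at 0.695 ± 0.433.

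E030024N20Rik (chr19:16164312-16164805, minus strand), annotated by RefSeq as a transcribed pseudogene, was measured at 1171, 946 and 625 in WT and 1712, 2047 and 2395 in HSKO (2.24 times the WT mean, 95% interval of the log2 fold change 0.66 to 1.74, adjusted p = 0.00158). Over 500 bases it is 95.6% identical to Ppia, the cyclophilin A gene, yet the Ppia row held only 13.8 to 18 in WT and 5.85 to 19.9 in HSKO. Reads of the pair may therefore not have been told apart. 1110051M20Rik (chr2:91275068-91444704, minus strand), a protein-coding gene whose human counterpart is the centriolar satellite gene CSTPP1, went from 1301, 1011 and 700 to 1948, 2273 and 2787 (log2 fold change 1.25, SE 0.26, adjusted p = 0.0013). It shares 1380 exonic bases with Arfgap2, a regulator of Golgi vesicle coats, whose own row was at only 5.16 ± 0.538 in WT and 5.53 ± 3.35 in HSKO.

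1810014B01Rik (chr10:86685525-86694806, plus strand), also a transcribed pseudogene, rose from 1266, 886 and 760 to 2061, 2239 and 1613 (log2 fold change 1.04, SE 0.25, adjusted p = 0.00321). Hsp90b1, the endoplasmic reticulum chaperone gene on the other strand with 415 shared exonic bases, was at 305 ± 41.2 in WT and 299 ± 12 in HSKO (log2 fold change -0.02, adjusted p = 0.951). The member and its neighbour thus differed in what limma called, although the difference between them was not tested. A730017L22Rik, a long noncoding RNA, went from 635, 527 and 409 to 1001, 906 and 814 (log2 fold change 0.81, SE 0.24, adjusted p = 0.0108). It is 97.9% identical to Psmd11, a proteasome subunit gene, over 1504 bases in the opposite orientation, and Psmd11 held 4.38 to 13.5 in every library. The call of A730017L22Rik was lost in 5 of 21 alternative settings. Its log2 fold change was 0.14 with quantile normalization (adjusted p = 0.574), 0.13 with total reads (adjusted p = 0.584) and 0.32 with total reads without the most abundant row (adjusted p = 0.196). Leaving out HSKO replicate 1 (adjusted p = 0.0551) or HSKO replicate 2 (adjusted p = 0.0507) also ended it.

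C230091D08Rik is now part of Snhg14, the long host transcript of imprinted small nucleolar RNAs that runs opposite the ubiquitin ligase gene Ube3a. It was at 509, 452 and 297 in WT and 896, 894 and 705 in HSKO (log2 fold change 1.01, SE 0.25, adjusted p = 0.00352), while the Ube3a row was at 11 ± 3.58 and 7.16 ± 2.75. 3110062M04Rik is now Cyren, a regulator of DNA end joining, and was at 485, 521 and 283 against 740, 947 and 846 (log2 fold change 1.02, SE 0.25, adjusted p = 0.00413). Tmem140, which shares 2168 exonic bases with it, moved in the same direction, from 46 ± 13.5 to 95.2 ± 10.8 (log2 fold change 1.06, adjusted p = 0.00366).

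Of the rows that have since been named, 17 were synonyms of 1 later symbol in RefSeq, with 9 called higher (52.9%) and 1 lower and a median of 0.80. The 74 whose Rik name is still current had 38 higher (51.4%) and 2 lower and a median of 0.87, where 28.5% of all tested rows were higher and 11.6% lower. 1500017E21Rik, now Hectd2os, an antisense transcript of Hectd2, went from 28.3 ± 1.1 in WT up to 57.4 ± 6.42 (SD, n = 3 each), with a log2 fold change of 0.99 (adjusted p = 0.00448). The Hectd2 row, with 1834 shared exonic bases, was far above it, at 1837 ± 758 and 2836 ± 193 (log2 fold change 0.70, adjusted p = 0.0446). C330021F23Rik, now Rps23rg1, a retrogene of a ribosomal protein, rose from 46.9 ± 8.7 to 103 ± 4.48 (log2 fold change 1.13, adjusted p = 0.00158). It shares 422 bases at 99.3% identity with Gm5148, a row at 2058 to 3994 in WT and 5827 to 8357 in HSKO, so its reads are uncertain.

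4930414L22Rik, now Particl, a long noncoding RNA from the promoter of the methionine adenosyltransferase gene Mat2a, rose from 29 ± 8.05 to 50.1 ± 6.16 (log2 fold change 0.80, adjusted p = 0.0272). Mat2a itself rose from 65.3 ± 9.43 to 173 ± 40.2 (log2 fold change 1.38, adjusted p = 0.000714), and the pair shares 508 exonic bases. The call of 4930414L22Rik was lost in 9 of 20 alternative settings, among them DESeq2 (adjusted p = 0.126), edgeR (adjusted p = 0.0799), total reads (log2 fold change 0.14, adjusted p = 0.674) and the fits without WT replicate 3 (adjusted p = 0.143), HSKO replicate 1 (adjusted p = 0.0859) or HSKO replicate 2 (adjusted p = 0.0567). 2310036O22Rik, now the RNA exonuclease gene Trir, was at 22.5 ± 9.68 and 39 ± 4.72 (log2 fold change 0.84, adjusted p = 0.032), and its call was lost in 11 of 20 alternative settings, including those without WT replicate 2 (adjusted p = 0.164), WT replicate 3 (adjusted p = 0.112), HSKO replicate 2 (adjusted p = 0.0806) or HSKO replicate 3 (adjusted p = 0.0752). A730098P11Rik, now the pseudogene Morf4l1-ps1, did not pass, at 74.8 ± 10.1 and 60.7 ± 2.05 (log2 fold change -0.29, adjusted p = 0.344).

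Proteins under 100 residues were annotated for 3 rows. E130218I03Rik, with 63 residues in GENCODE but typed as noncoding by RefSeq, rose from 71, 61.9 and 45.1 to 105, 147 and 180 (log2 fold change 1.25, adjusted p = 0.00143). 1100001G20Rik, now the small secreted protein gene Wfdc21, was at 33.2 ± 4.37 and 23.8 ± 5.19 (log2 fold change -0.47, adjusted p = 0.17). 2700089E24Rik, now the small membrane protein gene Smim10l1, was at 12.1 in both groups, with a 95% interval of the log2 fold change from -0.86 to 0.73.

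Over all tested rows 28.5% were called higher and 11.6% lower. By RefSeq type, 56 Rik rows were long noncoding RNAs, with 33 called higher (58.9%), 1 lower (1.79%) and a median log2 fold change of 0.89. The 32 protein-coding rows had 12 higher (37.5%), 2 lower (6.25%) and a median of 0.52, nearer the share over all tested rows. Their levels differed, with a median mean over 6 libraries of 29.8 for the noncoding and 21.7 for the protein-coding rows, and these classes were not matched for level. The 25 rows whose clone prefix marks a testis library had 14 higher (56%) and 1 lower with a median of 0.91. The 69 with other prefixes had 34 higher (49.3%) and 2 lower with a median of 0.81. Among 5 testis germ cell markers, the meiotic gene Sycp3 was at 60.2 ± 10.7 in WT and 179 ± 16.3 in HSKO, while the defining genes Prm2, Tnp1 and Ddx4 were at 0 in every library. Prm1 gave 1 read in HSKO replicate 1 and none in the other libraries. The summed level of the 5, at 48.5 to 69.4 in WT and 166 to 199 in HSKO, was therefore almost wholly Sycp3. Its part in the result was not tested.

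Rows of like mean expression were set beside the Rik rows, since the share called grew with the level. Between a mean of 10 and 20, 7 of 35 Rik rows (20%) were higher and 1 lower, beside 10.4% and 8.98% of 1180 other rows. Between 20 and 50, 15 of 28 (53.6%) were higher and 1 lower, beside 30.9% and 14% of 819 others. Between 50 and 200, 15 of 20 (75%) were higher and 1 lower, beside 49.8% and 14.8% of 440 others. At 200 and above all 11 were higher, beside 64.5% higher and 14.3% lower of 217 others. The median log2 fold changes were 0.59, 0.81, 0.96 and 1.02 for Rik rows and -0.15, 0.09, 0.68 and 1.10 for the others, so in the highest bin the other rows had the larger median.

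**Figure D3:**
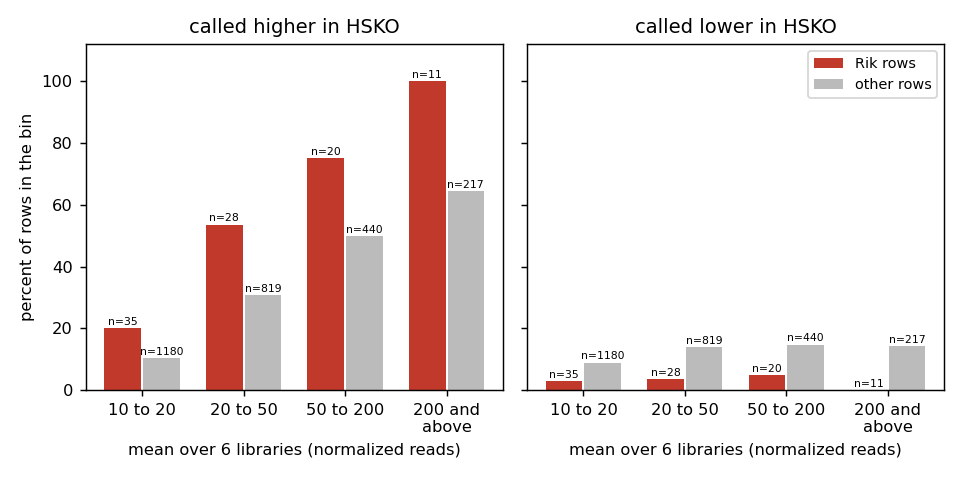
Percent of rows called higher (left) and lower (right) in HSKO by limma, in 4 bins of the mean over 6 libraries, for Rik rows (red) and other tested rows (grey), with the number of rows above each bar. The red bars for higher calls run from 20% to 100% and exceed the grey bars, which run from 10.4% to 64.5%, in each bin, and for lower calls the grey bars are the taller ones. Rows were matched for level only, and not for overlap with a gene on the other strand.

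Rows with other provisional names also leaned upward. Among 187 rows bearing just the name of a sequence record, 148 (79.1%) were higher and 1 lower, with a median of 1.09, a larger share than among the Rik rows. Of 40 rows named Gm and a number, 16 (40%) were higher and 4 lower, with a median of 0.72. Of 14 zinc finger rows named Zfp and a number, 5 (35.7%) were higher and 1 lower, with a median of 0.85. Of all tested rows, 28.5% were higher and 11.6% lower.

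Overlap with a gene on the other strand divided the Rik rows. In GENCODE M21 on mm10, 88 of the 94 matched a gene by their Rik name or by their RefSeq symbol. Of these, 68 (77.3%) shared at least 1 exonic base with a gene on the other strand, beside 989 of 2266 other tested rows (43.6%). The shared stretch was 20 to 5142 bases long with a median of 526, and the partner was protein coding in 57 cases. Of the 68, 37 (54.4%) were higher and 1 lower with a median log2 fold change of 0.89. Of the 20 without shared bases, 5 (25%) were higher and 2 lower with a median of -0.11. The same split in the other rows gave 43.6% higher, 7.48% lower and a median of 0.65 with shared bases, and 8.3% higher, 17.2% lower and a median of -0.33 without. Rows with shared bases were also compared by level, from 10, 20, 50 and 200 upward. Of the Rik rows (25, 20, 14 and 9), 20%, 55%, 85.7% and 100% were higher, beside 15.2%, 44.4%, 76.4% and 89.1% of others. The medians were 0.73, 0.81, 1.05 and 1.02 for Rik rows and 0.14, 0.65, 1.05 and 1.22 for the others.

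The 5 higher rows without shared bases were 1700003E16Rik, 2310036O22Rik, A230083G16Rik, D630045J12Rik and E030024N20Rik. 1700003E16Rik, a protein-coding gene, was at 48.1, 27 and 20.9 in WT and 68.7, 77.1 and 75.8 in HSKO (log2 fold change 1.27, adjusted p = 0.00237). The noncoding A230083G16Rik was at 22.1, 15.8 and 14.1 against 32.2, 48 and 29.3 (log2 fold change 1.02, adjusted p = 0.00987). D630045J12Rik, a protein-coding gene, had overlapping groups, at 16, 5.26 and 6.77 against 10.2, 34.9 and 38.6 (log2 fold change 1.42, adjusted p = 0.0179). Whether reads were counted on their own strand was not tested, and reads of a row and its partner cannot be told apart if they were not.

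**Figure D4:**
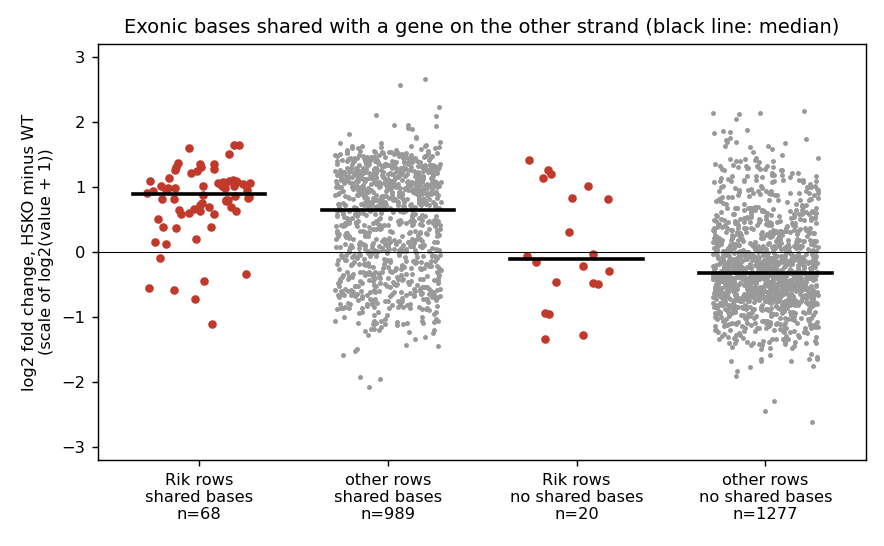
Log2 fold change (HSKO minus WT, scale of log2(value + 1)) of each tested row, 1 point per row, for Rik rows (red) and other rows (grey) with and without exonic bases shared with a gene on the other strand, with a black line at each median. The medians are 0.89 and 0.65 with shared bases and -0.11 and -0.33 without.

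The partner genes had rows of their own in 50 of the 68 cases, and in 42 the partner had the lower mean. Of the 21 partners with a mean of at least 10, 10 were called higher, 1 lower and 10 neither, with a median log2 fold change of 0.72. Of all tested rows, 28.5% were called higher and 11.6% lower. In 7 pairs both were higher. Ak3, a mitochondrial adenylate kinase gene, was at 65.9 ± 3.38 and 64.3 ± 9.18 (log2 fold change -0.04, adjusted p = 0.901). Its partner 1700018L02Rik rose from 253 ± 60.7 to 386 ± 59.5 (log2 fold change 0.62, adjusted p = 0.0471). Gsk3a, a glycogen synthase kinase gene, rose from 24.3 ± 4.21 to 45.6 ± 9.57 (log2 fold change 0.87, adjusted p = 0.0163), and its partner 9130221H12Rik from 185 ± 25.2 to 395 ± 42.6 (log2 fold change 1.09, adjusted p = 0.00138).

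As raw reads, the Rik rows called higher were about as abundant in both groups. The ratio of summed HSKO reads to summed WT reads had a median of 0.984 over the 48 (range 0.713 to 1.58), 0.179 over the 3 called lower and 0.662 over the 43 others, where it was 0.493 over all tested rows and 0.743 for whole libraries. In 3 rows, 1700113A16Rik, 4930455C13Rik and 4930526I15Rik, raw reads were higher in every HSKO library than in any WT library. In another 3 of the 48, 1700018L02Rik, A730017L22Rik and G630025P09Rik, they were lower in every HSKO library than in any WT library. The counts therefore depended on the scaling of libraries, which is set out next.

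Under upper quartile scaling, 57 Rik rows were higher and 3 lower, beside 30.8% and 7.56% of all tested rows. Quantile normalization gave 31 and 6, beside 21.6% and 18.3%. Scaling to total reads gave 6 higher and 14 lower, beside 8.04% and 38%, and so turned the balance of calls. Scaling to total reads without BC071253 gave 20 and 12, beside 15.6% and 33.2%. Scaling to the hepatocyte markers gave 64 and 0, beside 39.1% and 0.909%. On recovered reads, edgeR's quasi-likelihood test with TMM factors called 40 and 6, beside 24.9% and 21.9%, and DESeq2 called 33 and 3, beside 21.2% and 11.8%.

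A single factor per library moves all rows by nearly the same amount. The distance between the medians of the Rik rows and of all tested rows was therefore almost fixed in advance in those settings. Only quantile normalization could change it much, so the distance is no check on the scaling. The median of all rows moved from -0.57 with total reads to 0.59 with hepatocyte markers, and that of the Rik rows from 0.18 to 1.36, a difference of medians of 0.75 and 0.77, with 0.56 under quantile normalization as the smallest of the 8 settings. Over 7 scalings (the deposited one, the 5 others tested with limma and edgeR with TMM), the log2 fold change stayed above 0 for 61 Rik rows and below 0 for 8. Those called higher in all 7 were 1110051M20Rik, 1700113A16Rik, 4930455C13Rik, 9030025P20Rik, A330093E20Rik and E030024N20Rik, and no row was called lower in all 7. The smallest log2 fold changes of the 6 were 0.51 for 1110051M20Rik and 0.52 for E030024N20Rik, and the highest of the smallest was 0.99 for 1700113A16Rik. With total reads the calls of 1600012H06Rik (0.71, adjusted p = 0.0539), C330022C24Rik (0.67, adjusted p = 0.114), 4930526I15Rik (0.65, adjusted p = 0.0657), 4930506C21Rik (1.07, adjusted p = 0.0785), 1810014B01Rik (0.37, adjusted p = 0.128), 3110062M04Rik (0.34, adjusted p = 0.178) and C230091D08Rik (0.34, adjusted p = 0.167) were lost. So were those of E130218I03Rik (0.59, adjusted p = 0.0644), C330021F23Rik (0.47, adjusted p = 0.123) and 1500017E21Rik (0.33, adjusted p = 0.317). With hepatocyte scaling the falls of 2810007J24Rik (-0.80, adjusted p = 0.0792), 1810008I18Rik (-0.77, adjusted p = 0.183) and 4931406C07Rik (-0.59, adjusted p = 0.257) no longer passed.

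**Figure D5:**
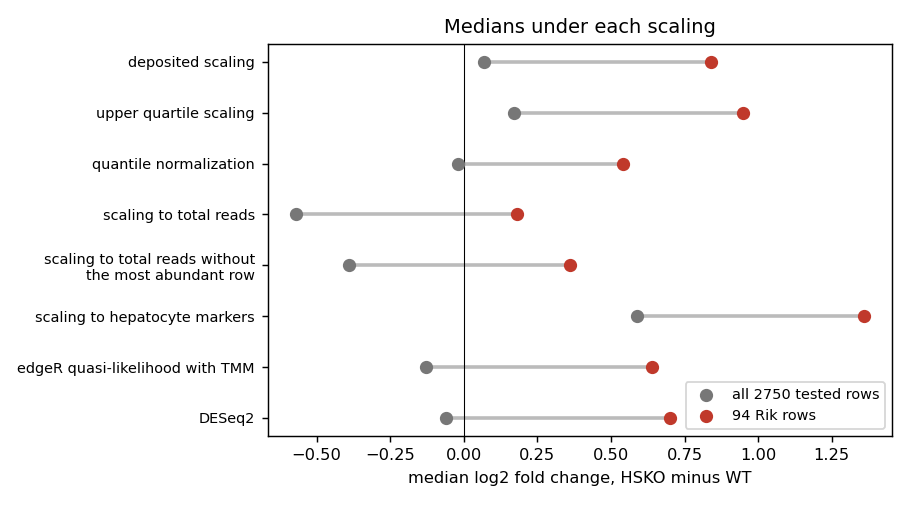
Median log2 fold change, HSKO minus WT, of the 94 Rik rows (red) and of all 2750 tested rows (grey) under the deposited scaling and 7 other settings, each pair joined by a line. Both medians move together, from -0.57 and 0.18 with total reads to 0.59 and 1.36 with hepatocyte markers, and red stays to the right of grey by 0.56 to 0.77. Settings with a single factor per library move both medians nearly alike by construction. The distance of 0.56 is that of quantile normalization, the only setting that could change it much.

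The spread among WT libraries was wide, with a median coefficient of variation of 26.1% (3.88% for 1500017E21Rik to 76.3%). WT replicate 3 was the lowest of the 3 WT libraries in 72 of 94 Rik rows (76.6%) and in 46.8% of all tested rows. Without it, 32 Rik rows (34%) were higher and 2 lower, with a median of 0.61. Over all tested rows the share called higher without it was 21.1%, down from 28.5%, with a median of 0.05. By level, from 10, 20, 50 and 200 upward, the median coefficient was 28.1%, 26.6%, 19.4% and 24% in Rik rows, against 22.3%, 21.2%, 20.6% and 22.6% in other rows. Counting error alone gave 24.2%, 18.7%, 10.6% and 4.02% for the Rik rows, so below a mean of 20 it made up most of the spread.

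Depth limited the low rows. In 30 of the 94, some library held fewer than 10 reads, and the lowest value was 2 reads. The 64 rows with at least 10 reads in every library had 45 higher and 1 lower with a median of 0.91, beside 44.1% higher and a median of 0.58 over 1617 such rows of any name. For 11 rows the WT mean was under 10, so that they passed the level condition through HSKO alone, and all 11 had a positive log2 fold change, 4 of them called higher (2310005A03Rik, 2610028H24Rik, 4930506C21Rik and D630045J12Rik). In 4 rows the HSKO mean was under 10, so that they passed the level condition through WT alone, among them 1810008I18Rik. The 79 rows with both group means of at least 10 had 44 higher (55.7%) and 2 lower (2.53%). The share over rows of any name under that condition was not counted, and over all tested rows it was 28.5% higher and 11.6% lower. Just above the bound of 10 stood 2200002D01Rik (10.1), 4930430F08Rik (10.2) and 4930592A05Rik (10.2), and just below it 1110008F13Rik (9.84), A930001C03Rik (9.81) and 9330162012Rik (9.76).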

How the data were processed

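Values are signal as deposited, that is, reads per gene which the authors scaled with one size factor for each library. Per the submitters' processing notes the tools were DESeq 1.16.0, RSEM 1.2.9, Bowtie and FastQC 0.11.3, and the build was mm10; no roles are stated. No source used here gives the annotation, the read filters or how strand was set. Division by the value of 1 read gave whole reads for 100% of values within 0.001. Replicates differed by a chi-square per degree of freedom of 2.12 to 8.68, above counting noise, so each library counted once. The test was limma 3.58.1 (R 4.3.3) with a trend on log2(value + 1), 2-sided, over the 2750 rows whose mean reached 10, with Benjamini-Hochberg adjustment over all of them. edgeR 4.0.16 and DESeq2 1.42.0 were run on recovered reads. Members and lists were chosen with earlier results of these data known. Named rows were the 8 largest rises and falls among called rows without overlap, the 6 with most WT reads, 3 on each side of the bound, small proteins and renamed genes; D630045J12Rik, 2310005A03Rik, 2610028H24Rik, A230083G16Rik, 1700003E16Rik, 4833422C13Rik, 2310061J03Rik, the 4 lower rows that did not pass and the rows per kilobase were named after their values were seen. Partners and lengths are from GENCODE M21, types and promoters from RefSeq GRCm38.p6. Copies were alignments of at least 300 bases at 95% identity. On simulated data for HSKO minus WT (2609 genes), 32 of 87 genes changed 2-fold and 76 of 81 changed 4-fold were recovered, with 5 false among 113 calls. The simulation had the same spread for all genes, known size factors and equal numbers of rises and falls. Its false calls therefore do not cover uncertainty in the scaling and do not carry over to these data.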

Additional observations from a re-analysis of the deposited data

How the results depend on the processing

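The number of Rik rows called higher and lower, 48 and 3, was 31 and 6 with quantile normalization, 6 and 14 with total reads, and 20 and 12 with total reads without the most abundant row. A minimum mean of 50 gave 27 and 1, but only the 20 Rik rows between 50 and 200 and the 11 at 200 and above remained. At the bound of 10, 15 and 11 of these were higher, so the smaller number is no loss of calls. Lower calls were 0 with hepatocyte scaling, 5 with array weights and 6 with edgeR. The median of 0.84 was 0.62 with a pseudocount of 10, 0.54 with quantile normalization, 0.18 and 0.36 with the scalings to total reads, 1.36 with hepatocyte scaling and 0.64 with edgeR. Over the 20 rows without exonic bases shared with the other strand, a set added after the data were seen, 5 were higher and the median was -0.11; the set is smaller by construction, and any other cause was not tested. Leaving out each library gave 32 to 54 higher, 1 to 4 lower and medians from 0.61 to 1.01, with 1 lower without WT replicate 2 and the smallest median without WT replicate 3. Of all tested rows, 21.1% (without WT replicate 3) to 29.9% (without WT replicate 1) were higher in these fits, beside 28.5% with every library. With these exceptions the cause of a change was not tested.

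With the replicate number as a block, 46 rows were higher and 3 lower, with a median of 0.84. Same-numbered libraries did not deviate together (correlations -0.0261, -0.0275 and -0.0209), and no sample correlated best with its own number. No pairing by number was thus seen, although so few replicates cannot exclude one. For the 28 named rows, 499 of 573 values under up to 21 settings kept direction and side of the threshold, 46 lost the call, 23 gained it and 5, all of rows not called in either case, changed sign. These were 2700089E24Rik with upper quartile scaling (0.03), hepatocyte scaling (0.43) and without HSKO replicate 2 (0.23, the highest with a library left out, where the lowest was -0.35), and, with hepatocyte scaling, 1100001G20Rik (0.05) and A730098P11Rik (0.25). Counting error limits rows below a mean of 20.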

Other observations

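Starts within 1000 bases of a start on the other strand were found for 27 Rik rows, of which 14 were higher and 1 lower with a median of 0.81, beside 28 higher and 2 lower with a median of 0.84 for the 61 without such a neighbour. The shares called higher were 51.9% and 45.9%, where 28.5% of all tested rows were. The 2 members of such a pair did not always move alike. 4833422C13Rik, a long noncoding RNA whose start lies 360 bases from that of Acot12, a liver acetyl-CoA hydrolase gene, rose from 31.4 ± 6.2 to 56.5 ± 14.5 (SD, n = 3, limma adjusted p = 0.025), while Acot12 fell from 18.3 ± 2.88 to 6.1 ± 1.52 (adjusted p = 0.0058). 2310061J03Rik, opposite the start of the transcription factor gene Zbtb11, was at 12.1 ± 3.15 and 14 ± 11.3 (adjusted p = 0.888), while Zbtb11 rose from 31.1 ± 8.97 to 62.3 ± 13.8 (adjusted p = 0.00927). The difference within each pair was not tested.

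A copy of at least 300 bases at 95% identity or more was found elsewhere among annotated transcripts for 13 Rik rows, of which 9 (69.2%) were called higher and 0 lower, with a median log2 fold change of 1.01. Over all tested rows 28.5% were higher. The 13 were well expressed, with a median mean of 67.7 beside 29 for all Rik rows, and were not matched for level. The shift of raw reads between these rows and their copies was not tested.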
